A study of Homo sapiens with 12 samples.

Results

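Growing IMR90 cells with and without depletion of the interleukin-1 receptor are compared here, in 4 of the 12 poly(A) RNA libraries of the study. The 4 were taken by their labels, as the 2 libraries of the receptor hairpin (shIL1R) and the 2 of the scramble hairpin (shScr) collected at day 0. IMR90 is a human lung fibroblast line, and all cells here carry hTERT, the catalytic subunit of telomerase, together with a Ras oncogene fused to a hormone-binding domain (RasERT2) that tamoxifen switches on. The hairpins were induced with doxycycline at 0.5 ug/ml in both groups. The labels call the day 0 samples growing control cells, taken here as cells in which Ras was not induced. They do not say whether day 0 cells had received the ethanol vehicle. The series text speaks of 2 independent hairpins. The labels do not say whether replicates 1 and 2 of shIL1R stand for these different hairpins or for separate cultures. The p-values below therefore rest on how far these few libraries vary, which may in part be technical variation.

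IL1R1 is the receptor that binds IL-1 alpha and IL-1 beta, and with its accessory chain IL1RAP it recruits MYD88 and the IRAK kinases, which activate NF-kB and AP-1. In fibroblasts IL-1 is a strong inducer of IL-6, CXCL8 and matrix metalloproteinases, and cells that become senescent use this pathway to drive the senescence-associated secretory phenotype (SASP), a set of released cytokines, proteases and growth factors. Growing fibroblasts release little of it, so the day 0 comparison asks how gene expression differs with the receptor hairpin before that program begins. Effects of less receptor and other effects of the hairpin or of the cell cultures cannot be told apart in this design.

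Values are deposited normalized counts, that is reads per gene divided by a factor for the library, and are compared between libraries for 1 gene at a time. The table held 27106 genes, of which 13924 with a value of 10 or more in at least 2 of the 12 libraries were tested. A gene may thus be tested through its level at a later day and lie near 0 at day 0. The 4 libraries held 27086146 to 30127727 reads assigned to genes. Of the 10 fibroblast markers all were measured at 10 or more, with sums of 477430 and 484680 in shIL1R libraries and of 439400 and 392300 in shScr libraries. The members did not go 1 way. COL1A1, COL1A2, COL3A1 and PDGFRA were higher in both shIL1R libraries than in both shScr libraries. VIM, THY1, FAP and PRRX1 were lower in both, and PDGFRB and TWIST1 overlapped. KRT5, SFTPC and SCGB1A1 of the epithelium, CDH5 of the endothelium and CD3E of T cells were at 0 in all 4 libraries, and of the 14 markers of those 3 compartments CD68 alone averaged 10 or more. These 14 are a short choice. In wider lists 5 of 12 epithelial and 6 of 10 endothelial markers passed the filter over the 12 libraries. MUC1 and TEK, given below, are among them and were expressed at day 0. Of the lung mesenchyme markers TBX5, TCF21 and FOXF1 were well above 10, while TBX4 read 0 to 2.58. In bulk RNA a smaller share of cells that use a gene and less of its RNA per cell cannot be told apart.

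At day 0 both shIL1R libraries held less of the targeted transcript, to an unequal extent. IL1R1 had 731 and 378 normalized counts in shIL1R libraries, against 1509 and 1552 in shScr libraries. Replicate 1 of shIL1R thus kept nearly double the level of replicate 2, and both lay below the shScr libraries. The log2 fold change (from limma, with its SE, here and below) was −1.54 ± 0.29 (SE, n = 2 each), which missed the threshold of 0.05 in limma (adjusted p = 0.158) and passed in edgeR's quasi-likelihood test on recovered reads (adjusted p = 0.00925). Without replicate 1 of shIL1R it was −2.02 and passed in limma (adjusted p = 0.0468). With Ras induced the level in shIL1R libraries was 272 and 86.4 at day 4 and 295 and 280 at day 10, against 1546 and 1423 at day 4 and 1580 and 1240 at day 10 in shScr libraries. The change of the difference from day 0 to day 4 was −1.73 ± 0.60 and missed the threshold (limma adjusted p = 0.351).

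IL1RAP, the accessory chain, read 527 and 613 in shIL1R libraries and 453 and 453 in shScr libraries, a log2 difference of 0.33 ± 0.10 that passed neither test (adjusted p = 0.209 in limma, 0.0979 in edgeR). The ligand gene IL1A read 76.3 and 141 in shIL1R libraries and 68.0 and 58.4 in shScr libraries, and it too passed neither test (adjusted p = 0.300 in limma, 0.156 in edgeR). IL1B, the other ligand, read 854 and 835 in shIL1R libraries and 454 and 632 in shScr libraries. Its log2 fold change of 0.66 ± 0.16 passed in edgeR (adjusted p = 0.0310) and not in limma (0.170). Of the 26 tested genes of IL-1 ligands, receptors and signalling, IL1B rose and IL1R1 fell by edgeR, and their median log2 fold change was −0.02, against −0.01 over all genes tested. By limma 4 of the 26 were higher and 3 lower at an unadjusted p under 0.05, and 0 were called.

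How many genes pass at day 0 depends on the test and its settings. Limma on log2(value + 1) in the 4 libraries called no gene higher and 2 lower (0.0144% of the genes tested), with 1257 higher and 1257 lower at an unadjusted p under 0.05. EdgeR on the recovered reads of the same libraries called 286 genes higher (2.05%) and 127 lower (0.912%), with 1511 higher and 1106 lower at an unadjusted p under 0.05. These values over all genes are the background for the list counts below. DESeq2 called 324 higher (2.89% of the 11204 genes it gave an adjusted p) and 153 lower (1.37%). EdgeR was taken as a second call rule after the limma count was seen. Below, "rose" and "fell" refer to the edgeR calls, with the limma adjusted p given for some of the genes. In limma every gene but PXT1 and ITPR3 missed the threshold at day 0, also where no limma p is given. The edgeR count is itself unstable. Without replicate 2 of shScr it called 2 genes higher and 2 lower, without replicate 1 of shScr 170 and 115, without replicate 1 of shIL1R 1114 and 575, and without replicate 2 of shIL1R 308 and 236. C3 and MALAT1 among the higher genes, and ITPR3 and PXT1 among the lower ones, were called in all 4 of these fits. Counts within gene lists moved likewise: without replicate 1 of shIL1R edgeR called 25 matrix, 10 complement and 8 cytokine genes higher, where the 4 libraries gave 15, 7 and 4. Differences were small for most genes, with a median absolute log2 fold change of 0.12 over all genes tested. The 2 libraries of a group did not overlap those of the other in 23.5% of all genes in the higher direction and 27.9% in the lower, so a lack of overlap on its own sets a gene little apart.

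**Figure D1:**
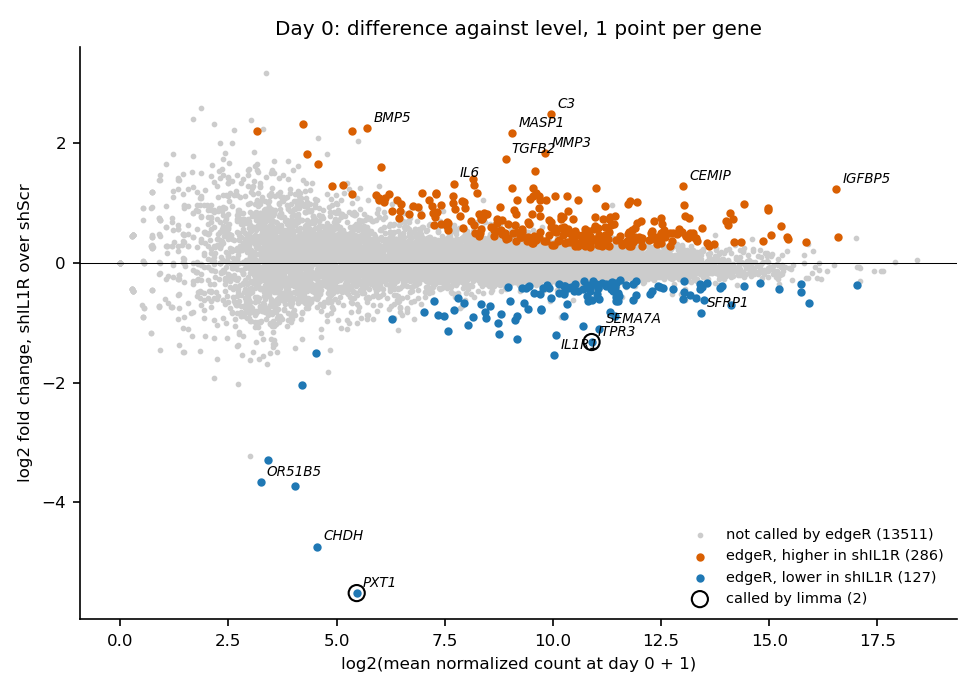
Log2 fold change, shIL1R over shScr at day 0, against log2 of the mean normalized count plus 1, with 1 point for each of the 13924 genes tested. The 286 genes called higher and the 127 called lower by edgeR are coloured, and the 2 genes called by limma, PXT1 and ITPR3, are circled.

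Both genes called by limma were lower. PXT1, which encodes a peroxisomal protein known from testis, was nearly absent from the shIL1R libraries. It read 0.898 and 0.861 in shIL1R libraries, which is 1 read in each, against 79.9 and 91.0 in shScr libraries, or 87 and 109 reads. The ratio of the summed counts was 0.0104, with an exact 95% interval of 0.00125 to 0.0380 that covers counting error only, and limma gave an adjusted p of 0.00914. The gene was also near 0 at the other days, with 0 and 0 at day 4 and 0 and 1.13 at day 10 in shIL1R libraries, against 82.8 and 93.7 at day 4 and 88.5 and 86.1 at day 10 in shScr libraries.

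ITPR3, a calcium channel of the endoplasmic reticulum that opens on inositol trisphosphate, read 1124 and 1047 in shIL1R libraries and 2801 and 2634 in shScr libraries. Its log2 fold change of −1.32 ± 0.06 passed in both tests (limma adjusted p = 0.00914, edgeR 7.16e-05). With Ras induced the difference for this gene was smaller, and the change passed at day 10 and not at day 4. ITPR3 read 3314 and 3436 in shIL1R libraries at day 4, against 4188 and 4322 in shScr libraries, still without overlap. The difference at day 4 minus that at day 0 was 0.99 (limma adjusted p = 0.120). At day 10 the gene read 3709 and 4034 in shIL1R libraries, against 4949 and 3676 in shScr libraries. The difference at day 10 minus that at day 0 was 1.18 (limma adjusted p = 0.00850).

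A further 2 genes of low level were almost absent from the shIL1R libraries and fell by edgeR. CHDH, the choline dehydrogenase of mitochondria, had 2 and 0 reads in shIL1R libraries and 51 and 49 in shScr libraries, a ratio of 0.0204 (exact 95% interval 0.00243 to 0.0755). OR51B5, an olfactory receptor gene, had 0 and 1 reads in shIL1R libraries and 15 and 23 in shScr libraries, a ratio of 0.0268 (0.000661 to 0.159). Both were at 0 to 1.95 normalized counts in every shIL1R library at days 4 and 10, against 7.08 to 54.2 in shScr libraries. CHDH and OR51B5 overlap other protein-coding genes in the RefSeq annotation, and whether counting used strand is not given in the sources used here, so reads of these loci may be shared. OR51B5 lies within a cluster of receptor genes. The same limit holds for other genes named here that overlap a protein-coding gene, namely ERCC6, FN1, THBS1, PTX3, NFKBIZ, SOD2, ADAMTS5, CEMIP, ACTA2, BMP4, DUSP6, HRAS, TERT, SLC16A6 and NKD2. ERCC6, which acts in transcription-coupled DNA repair, also fell, with 119 and 119 in shIL1R libraries and 259 and 263 in shScr libraries (log2 fold change −1.13 ± 0.11, edgeR adjusted p = 0.00302, limma 0.0949).

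**Figure D2:**
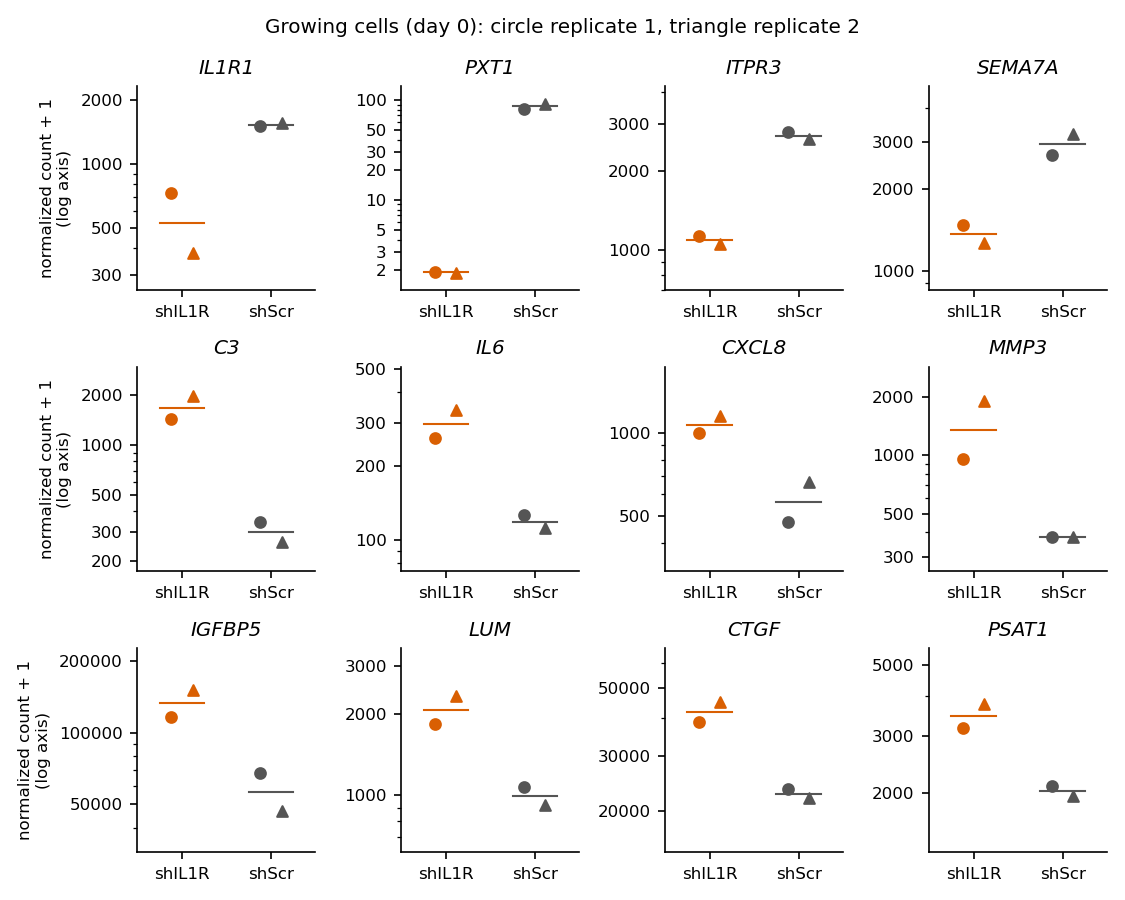
Normalized count plus 1 (log axes) of 12 genes in the 4 day 0 libraries, shIL1R left and shScr right in each panel, with a circle for replicate 1, a triangle for replicate 2 and a bar at the mean of the logs. The 2 groups do not overlap in any panel, and the 2 shIL1R libraries lie farthest apart for IL1R1 and MMP3.

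EdgeR called 41.2% of the complement and acute phase genes, a larger share than in the cytokine, NF-kB, IL-1 and interferon lists. Other lists had shares of like size. These were 42.2% for the matrix list, 36.7% for TGF-beta targets and contractile genes, 36.1% for growth factors and 32.1% for SASP proteases. Over all genes tested the share was 2.97%. Of the 17 tested complement and acute phase genes 7 rose and none fell by edgeR, against 2.05% and 0.912% of all genes tested. Both shIL1R libraries were above both shScr libraries for 11 of the 17, against 23.5% of all genes, and the median log2 fold change was 0.38. Limma called 0 of them, with 11 higher at an unadjusted p under 0.05, and DESeq2 called 6. Without replicate 2 of shScr edgeR called 1 of the 17, which was C3. C3, the central component on which the complement pathways converge, read 1431 and 1963 in shIL1R libraries and 343 and 260 in shScr libraries (log2 fold change 2.49 ± 0.19, edgeR adjusted p = 0.00018, limma 0.0761). The difference is many times the gap within either group. C1R and C1S, the proteases of the classical pathway, read 2895 and 3073, and 2484 and 2536, in shIL1R libraries, against 2227 and 1943, and 1763 and 1588, in shScr libraries (log2 fold changes 0.52 and 0.58, edgeR adjusted p = 0.00925 and 0.00362). C1QTNF1, CLU and the pentraxin PTX3 also rose, by log2 fold changes of 0.79, 0.38 and 0.65. MASP1, a protease of the lectin pathway that the list does not hold, had 597 and 1158 in shIL1R libraries and 206 and 165 in shScr libraries, with a log2 fold change of 2.17 ± 0.31 (edgeR adjusted p = 0.00394).

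Of 22 tested SASP cytokines and chemokines, 4 rose and none fell by edgeR (2.05% and 0.912% over all genes tested), and the median log2 fold change was 0.44. In both shIL1R libraries 12 of the 22 were higher and 1 was lower, against 23.5% and 27.9% of all genes tested. Log2 fold changes were above 0 for 17 and below 0 for 4 of the 22. The filter admits cytokine genes through their levels at later days. How many of the 22 lie near 0 at day 0 was not counted, so the median and these counts include such members. Limma called 0, with 8 higher and 1 lower at an unadjusted p under 0.05, and DESeq2 called 4 higher. Without replicate 2 of shScr edgeR called 0 of them. IL6, the cytokine of fever and the acute phase, read 259 and 337 in shIL1R libraries and 125 and 110 in shScr libraries (log2 fold change 1.32 ± 0.17, edgeR adjusted p = 0.00362, limma 0.102). CXCL8, which attracts neutrophils, read 991 and 1145 in shIL1R libraries and 475 and 666 in shScr libraries (0.92 ± 0.17, edgeR adjusted p = 0.0103, limma 0.154). Both genes were thus above either shScr library in each shIL1R library. LIF, a cytokine of the IL-6 family, and TNFSF15, a ligand of the TNF family, rose by log2 fold changes of 0.52 ± 0.10 and 1.09 ± 0.18. The neutrophil attractants CXCL1 and CXCL5 did not pass. CXCL1 read 78.1 and 46.5 in shIL1R libraries and 38.6 and 43.4 in shScr libraries (edgeR adjusted p = 0.270), and CXCL5 read 38.6 and 37.9 in shIL1R libraries and 19.3 and 22.5 in shScr libraries (edgeR adjusted p = 0.118).

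Of 30 NF-kB subunits, feedback genes and targets, NFKBIZ, VCAM1 and SOD2 rose and none fell by edgeR, and the median log2 fold change of 0.01 lay near that of all genes. By limma 8 were higher and 1 lower at an unadjusted p under 0.05 and 0 were called, and without replicate 2 of shScr edgeR called 0. NFKBIZ, a nuclear co-regulator of secondary NF-kB targets, read 904 and 1046 in shIL1R libraries and 703 and 652 in shScr libraries. VCAM1, an adhesion molecule for leukocytes, read 54.8 and 55.1 in shIL1R libraries and 22.0 and 26.7 in shScr libraries. SOD2, the mitochondrial superoxide dismutase, read 3709 and 3840 in shIL1R libraries and 3185 and 3040 in shScr libraries. These are log2 fold changes of 0.52, 1.15 and 0.28, with edgeR adjusted p-values of 0.0161, 0.0356 and 0.0376.

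The promoters of several of these genes hold the NF-kB consensus in the 250 bases before the start site. The stretch around the match is printed 5′ to 3′ on the gene's strand from RefSeq (GRCh38.p14), for 3 genes called higher by edgeR and 2 chemokine genes that were not called, with the matched letters in capitals.
IL6, chr7:22727082-22727181, plus strand: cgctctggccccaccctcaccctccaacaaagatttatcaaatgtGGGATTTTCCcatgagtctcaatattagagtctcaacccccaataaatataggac
NFKBIZ, chr3:101827740-101827821, plus strand: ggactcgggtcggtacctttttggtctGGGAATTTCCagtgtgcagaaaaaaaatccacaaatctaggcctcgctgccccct
VCAM1, chr1:100719635-100719734, plus strand: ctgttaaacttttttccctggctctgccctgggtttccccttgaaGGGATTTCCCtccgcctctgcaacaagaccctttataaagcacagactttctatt
CXCL1, chr4:73869269-73869369, plus strand: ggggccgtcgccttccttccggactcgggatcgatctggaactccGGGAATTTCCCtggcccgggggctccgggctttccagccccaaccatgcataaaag
CXCL5, chr4:73998713-73998813, minus strand: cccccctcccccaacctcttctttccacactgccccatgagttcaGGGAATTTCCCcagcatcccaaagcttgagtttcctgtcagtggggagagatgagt
In CXCL1 and CXCL5 overlapping matches on the 2 strands differ by 1 base, and in VCAM1 they coincide.

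Searched on both strands, the consensus was found in 19 of the 195 promoters matched to genes that rose (9.74%), in 7 of 99 matched to genes that fell (7.07%) and in 606 of 10336 over all genes tested (5.86%). Among the SASP cytokines and chemokines it was found in 8 of 17 (47.1%), among the NF-kB list in 9 of 27 (33.3%) and among complement and acute phase genes in 1 of 8 (12.5%). It was also found for PTX3, ITGA11, IGFBP5, GALNT15 and SESN2, which rose, and for PRRX1, which fell. For CXCL8, LIF, TNFSF15, SOD2, C3, C1R, C1S and C1QTNF1, which also rose, there was no match to print. Their promoters held none or were not among those matched. A match is a description of the letters and does not show binding, and CXCL1 and CXCL5 hold it beside a difference that did not pass.

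Of 28 SASP proteases and their regulators 7 rose and 2 fell by edgeR, with a median log2 fold change of 0.14. None passed in limma, where 10 were higher and 5 lower at an unadjusted p under 0.05, and without replicate 2 of shScr edgeR called 0 higher. MMP3 (stromelysin-1) read 957 and 1913 in shIL1R libraries and 376 and 379 in shScr libraries, a log2 fold change of 1.84 ± 0.30 (edgeR adjusted p = 0.00639, limma 0.145). The level in replicate 2 of shIL1R was about double that in replicate 1, and both lay above the shScr libraries. MMP1, the interstitial collagenase, read 16551 and 24115 in shIL1R libraries and 11082 and 13494 in shScr libraries (0.71 ± 0.19, edgeR adjusted p = 0.0356). MMP2, a gelatinase, the aggrecan-cleaving proteases ADAMTS1 and ADAMTS5, and the cathepsin CTSK rose by log2 fold changes of 0.49, 0.76, 1.25 and 0.93. MMP14, the membrane-bound metalloproteinase that activates MMP2, fell, with 25122 and 24611 in shIL1R libraries and 29801 and 33020 in shScr libraries (−0.34 ± 0.07, edgeR adjusted p = 0.0427).

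The matrix list had more edgeR calls than any other list examined. Of 45 tested members 15 rose and 4 fell by edgeR, and the median log2 fold change was 0.26. Limma called 0, with 21 higher and 6 lower at an unadjusted p under 0.05, and DESeq2 called 17 higher and 6 lower. Without replicate 2 of shScr edgeR called 0 in either direction. COL3A1, a fibrillar collagen, read 24332 and 34053 in shIL1R libraries and 16428 and 12911 in shScr libraries (log2 fold change 0.98 ± 0.18, edgeR adjusted p = 0.0100, limma 0.158). COL14A1, a collagen of the fibril surface, read 717 and 718 in shIL1R libraries and 435 and 384 in shScr libraries (0.81 ± 0.09, edgeR adjusted p = 0.00302, limma 0.0949). The small proteoglycans LUM and DCN, which bind collagen fibrils, rose by 1.06 ± 0.13 and 0.44 ± 0.08, and COL1A2 by 0.43 ± 0.13. CEMIP, which degrades hyaluronan, read 8150 and 15508 in shIL1R libraries and 5398 and 3922 in shScr libraries (1.29 ± 0.31, edgeR adjusted p = 0.0216). The genes that fell were FN1, THBS1, VCAN and HAS2. FN1, fibronectin, read 121837 and 113034 in shIL1R libraries and 143340 and 159387 in shScr libraries, and HAS2, which makes hyaluronan, read 2364 and 2406 in shIL1R libraries and 3148 and 3850 in shScr libraries. Their log2 fold changes were −0.37 and −0.55, those of the adhesive protein THBS1 and the proteoglycan VCAN −0.35 and −0.49, and edgeR gave adjusted p-values of 0.0145 to 0.0429 for the 4.

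Among 30 TGF-beta targets and contractile genes 9 rose and 2 fell by edgeR, with a median log2 fold change of 0.14. By limma 14 were higher and 5 lower at an unadjusted p under 0.05 and 0 were called, and without replicate 2 of shScr edgeR called 0 higher. The ligand TGFB2 read 568 and 908 in shIL1R libraries and 262 and 176 in shScr libraries (log2 fold change 1.74 ± 0.27, edgeR adjusted p = 0.00519). CTGF, a matricellular protein, read 38759 and 44876 in shIL1R libraries and 23411 and 21952 in shScr libraries (0.88 ± 0.09, edgeR adjusted p = 0.0016, limma 0.0949). Its relative CYR61 rose by 0.35 ± 0.07, the collagen-binding integrin ITGA11 by 1.05 ± 0.20 and the smooth muscle actin ACTA2 by 0.62 ± 0.16. ID1 and ID3, which block basic helix-loop-helix factors and are targets of BMP signals, fell, with log2 fold changes of −0.42 and −0.35. BMP2 and BMP4, ligands of that pathway, rose, as given with the next list.

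Of 36 growth factors and IGF-binding proteins 11 rose and 2 fell by edgeR, with a median log2 fold change of 0.29. None passed in limma, where 17 were higher and 4 lower at an unadjusted p under 0.05, and without replicate 2 of shScr edgeR called 0 higher. BMP2 read 1574 and 1977 in shIL1R libraries and 856 and 763 in shScr libraries (log2 fold change 1.13 ± 0.12, edgeR adjusted p = 0.00189, limma 0.0949), and BMP4 read 262 and 393 in shIL1R libraries and 188 and 132 in shScr libraries (1.02 ± 0.25, edgeR adjusted p = 0.0312). BMP5, outside the list, was low in all libraries, with 55.7 and 118 in shIL1R libraries and 15.6 and 16.7 in shScr libraries (2.26 ± 0.37, edgeR adjusted p = 0.0130). IGFBP5, which binds insulin-like growth factors, read 117161 and 151823 in shIL1R libraries and 67693 and 47141 in shScr libraries (1.24 ± 0.21, edgeR adjusted p = 0.00595). IGFBP3 rose by 0.96 ± 0.24. FGF9, a fibroblast growth factor also outside the list, rose by 2.20 ± 0.34 at levels of 46.7 and 86.1 in shIL1R libraries and 11.9 and 14.2 in shScr libraries. Of the 17 WNT ligands and inhibitors WNT5A, WNT16 and NKD2 rose and SFRP1 and DKK1 fell by edgeR. Limma called 0 of the 17, with 6 higher and 2 lower at an unadjusted p under 0.05. EdgeR called 1 higher and 1 lower without replicate 1 of shScr, and 0 in either direction without replicate 2 of shScr. The secreted WNT inhibitor SFRP1 read 8574 and 7217 in shIL1R libraries and 13608 and 14625 in shScr libraries (−0.84 ± 0.09, edgeR adjusted p = 0.00287, limma 0.0949).

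Genes outside these lists that rose by edgeR included receptors, adhesion molecules and enzymes. ITGA8, an integrin of mesenchymal cells, read 379 and 448 in shIL1R libraries and 175 and 138 in shScr libraries (log2 fold change 1.40 ± 0.16, edgeR adjusted p = 0.00287). HSD17B2, which oxidises sex steroids, read 621 and 894 in shIL1R libraries and 311 and 310 in shScr libraries (1.26 ± 0.17, edgeR adjusted p = 0.00372). DPP4, a cell-surface peptidase, read 876 and 1158 in shIL1R libraries and 456 and 473 in shScr libraries (1.12 ± 0.14, edgeR adjusted p = 0.00302). TNFRSF11B, osteoprotegerin, the decoy receptor for RANKL, rose by 1.03 ± 0.14, the adhesion molecule CADM1 by 1.26 ± 0.26, the glycosyltransferase GALNT15 by 1.53 ± 0.23, the transporter SLC16A6 by 0.84 ± 0.12 and the salivary-type cystatin CST4 by 2.21 ± 0.33. CST4 read 14.4 and 12.9 in shIL1R libraries and 2.76 and 1.67 in shScr libraries, so its fold rests on few reads. The nuclear noncoding RNA MALAT1 read 5204 and 5282 in shIL1R libraries and 2905 and 2324 in shScr libraries (1.01 ± 0.11, edgeR adjusted p = 0.0016, limma 0.0949).

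The lower genes included signalling and guidance molecules. SEMA7A, a membrane-anchored semaphorin, read 1468 and 1267 in shIL1R libraries and 2676 and 3209 in shScr libraries (log2 fold change −1.10 ± 0.11, edgeR adjusted p = 0.0016, limma 0.0949). NPTX1, a neuronal pentraxin, read 1838 and 2061 in shIL1R libraries and 3698 and 3516 in shScr libraries (−0.89 ± 0.07, edgeR adjusted p = 0.0011, limma 0.0761), and the guidance ligand SLIT2 read 219 and 176 in shIL1R libraries and 378 and 358 in shScr libraries (−0.90 ± 0.13, edgeR adjusted p = 0.00878). ESM1, SCUBE3, PODXL and ADAMTSL1, all secreted or surface proteins, fell, with log2 fold changes of −1.27, −1.20, −1.06 and −1.19. RGS4, a regulator of G-protein signals, fell to 249 and 313 in shIL1R libraries, against 461 and 676 in shScr libraries. For PODXL and ESM1 the shScr libraries lay far apart, at 1746 and 2802 for PODXL and 641 and 991 for ESM1, against 1090 and 1031 for PODXL and 401 and 269 for ESM1 in shIL1R libraries.

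Of 26 stress response genes 7 rose and 1 fell by edgeR, with a median log2 fold change of 0.09. Limma called 0, with 11 higher and 5 lower at an unadjusted p under 0.05, and without replicate 2 of shScr edgeR called 0 higher. Those that rose were DDIT4, TRIB3, ASNS, SESN2, PSAT1, GCLC and SLC7A11, most of them known targets of ATF4, the factor of amino acid shortage. ATF4 itself, DDIT3, CHAC1 and PHGDH, of the same list, were not called, and NQO1 fell. A part of ATF4 in these values was not tested. PSAT1, of serine synthesis, read 3192 and 3778 in shIL1R libraries and 2089 and 1948 in shScr libraries (log2 fold change 0.78 ± 0.09, edgeR adjusted p = 0.00302, limma 0.0949). ASNS, which makes asparagine, read 3003 and 3356 in shIL1R libraries and 2153 and 1951 in shScr libraries (0.63 ± 0.08, edgeR adjusted p = 0.00394). DDIT4, an inhibitor of mTORC1, read 1318 and 1236 in shIL1R libraries and 855 and 842 in shScr libraries (0.59 ± 0.06, edgeR adjusted p = 0.00362). The early response factor EGR1 rose by 0.77 ± 0.10, with a limma adjusted p of 0.104. Of 25 genes of Ras-MAPK feedback DUSP6 and SPRY1 rose, by 0.37 ± 0.07 and 1.05 ± 0.19, and RGS4 fell by edgeR, with a median log2 fold change of 0.01. DESeq2 called 3 of the 25 higher and 5 lower. Limma called 0, with 8 higher and 5 lower at an unadjusted p under 0.05, and edgeR called 0 higher and 3 lower without replicate 1 of shScr and 0 in either direction without replicate 2 of shScr.

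Genes of division, of the arrest and of interferon were called no more often than all genes tested. EdgeR called 1.96% of the cell cycle list and 0% of the CDK inhibitor and interferon lists, against 2.97% of all genes tested. Lists of this length give few calls at that share, so these counts alone say little about them. Over all 13924 genes tested edgeR gave 1511 higher and 1106 lower at an unadjusted p under 0.05, and limma 1257 and 1257. Of 51 cell cycle genes only MKI67, the Ki-67 antigen, fell by edgeR, and none rose, with 5 higher and 4 lower at an unadjusted p under 0.05. It read 9232 and 9197 in shIL1R libraries and 11210 and 13818 in shScr libraries (log2 fold change −0.43 ± 0.10, edgeR adjusted p = 0.0380, limma 0.169), while the list's median was −0.07. Of the 51 genes 7 were higher and 19 lower in both shIL1R libraries, against 23.5% and 27.9% of all genes tested. Without replicate 1 of shIL1R edgeR called 2 of the 51 higher and 6 lower, and without replicate 2 of shScr 0 in either direction. The inhibitors of cyclin-dependent kinases did not pass, with CDKN1A at 10401 and 9905 in shIL1R libraries and 10016 and 8866 in shScr libraries, and CDKN2A at 131 and 126 in shIL1R libraries and 113 and 114 in shScr libraries. Of the 11 CDK inhibitor and RB family genes 5 were higher and 1 lower in both shIL1R libraries. Of 42 interferon response genes edgeR called 0, with 8 higher and 0 lower at an unadjusted p under 0.05, limma called 0 and DESeq2 called 1. In both shIL1R libraries 16 of the 42 were higher and 3 were lower. Without replicate 1 of shIL1R edgeR called 8 of the 42 higher. All 35 ribosomal protein genes tested were lower in both shIL1R libraries, against 27.9% of all genes tested. Their median log2 fold change was −0.18, against −0.01 over all genes. EdgeR, limma and DESeq2 called 0 of them, with 27 lower at an unadjusted p under 0.05 in edgeR and 30 in limma. Of 11 Notch genes edgeR called 0, with 4 lower at an unadjusted p under 0.05, and DESeq2 called 1. Of 14 genes of the RNA interference machinery, through which the hairpins act, edgeR called 0, with 3 lower at an unadjusted p under 0.05, and DESeq2 called 0. HRAS read 41321 and 41405 in shIL1R libraries and 43044 and 43386 in shScr libraries, and TERT 27804 and 25392 in shIL1R libraries and 32544 and 30773 in shScr libraries. Neither passed in edgeR (adjusted p = 0.723 for HRAS and 0.109 for TERT). Reads of the introduced hTERT may be counted as TERT, and those of RasERT2 as HRAS if it derives from that gene. The parts of transgene and own gene were not told apart.

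Of 16 genes of fibroblast identity 4 rose (COL1A2, COL3A1, PDGFRA and TCF21) and PRRX1 fell by edgeR, and the median log2 fold change was 0.08. The collagen genes also belong to the matrix list. By limma 6 of the 16 were higher and 3 lower at an unadjusted p under 0.05 and 0 were called, and without replicate 2 of shScr edgeR called 0 in either direction. PDGFRA, a growth factor receptor of fibroblasts, read 5074 and 6479 in shIL1R libraries and 4153 and 4278 in shScr libraries, and TCF21, a factor of lung mesenchyme, read 1550 and 2007 in shIL1R libraries and 1097 and 1016 in shScr libraries. PRRX1, a mesenchymal homeobox factor, read 1698 and 1697 in shIL1R libraries and 2264 and 2597 in shScr libraries. Markers of other cell types that were at 0 in all 4 libraries are given above, and a few others of the wider marker lists were called. Among 5 tested epithelial markers MUC1, a membrane mucin, rose by edgeR, and 3 were lower in both shIL1R libraries, as were 27.9% of all genes tested. MUC1 read 154 and 160 in shIL1R libraries and 94.6 and 85.1 in shScr libraries (log2 fold change 0.80 ± 0.14, edgeR adjusted p = 0.0214, limma 0.154). Among 6 endothelial markers TEK, the angiopoietin receptor, rose, with 2483 and 3249 in shIL1R libraries and 1775 and 1644 in shScr libraries (0.73 ± 0.13, edgeR adjusted p = 0.00935). CNN1 rose and TUBB3 fell among 7 smooth muscle and neural markers, with TUBB3 at 4596 and 3766 in shIL1R libraries and 5478 and 6063 in shScr libraries. Limma called 0 of these markers, and without replicate 2 of shScr edgeR called 0. The part of other cells in these values was not tested.

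**Figure D3:**
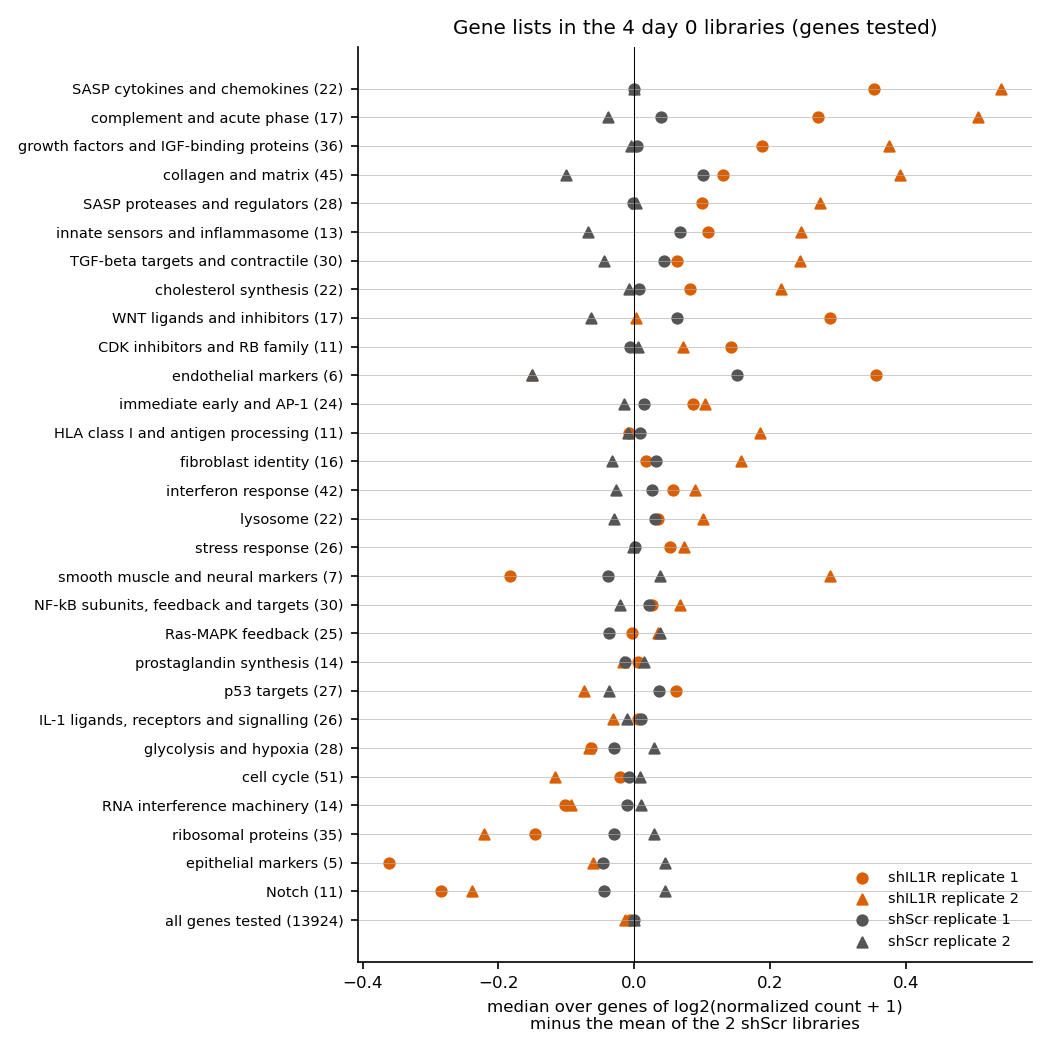
Median over the tested genes of each list (number in brackets) of the log2 value in a day 0 library minus the mean of both shScr libraries, with shIL1R in orange and shScr in grey, circles for replicate 1 and triangles for replicate 2. For complement genes the shIL1R libraries lie at 0.271 and 0.506, against 0.0388 and −0.0388 in the shScr libraries, and the medians over all 13924 genes lie near 0.

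The 2 shIL1R libraries did not carry the difference equally. Of the 286 genes that rose by edgeR, replicate 2 of shIL1R was above replicate 1 in 256 (89.5%), and replicate 2 of shScr was above replicate 1 in 55 (19.2%). Over all genes tested these shares were 48.5% and 50.1%. Of the 127 genes that fell, replicate 2 of shIL1R was above replicate 1 in 53 (41.7%) and replicate 2 of shScr above replicate 1 in 114 (89.8%). For the higher genes the median log2 gap of replicate 2 over replicate 1 was 0.184 in shIL1R libraries and −0.116 in shScr libraries. Replicate 2 of shIL1R also had the lower IL1R1. Most of the higher genes thus had their highest level in replicate 2 of shIL1R and their lowest in replicate 2 of shScr. Beyond leaving each library out, the part of these libraries in the calls was not tested.

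Days 4 and 10 hold other libraries of the same 2 genotypes, with Ras induced, and show which day 0 differences were also present there. Of the 286 genes higher at day 0, 65.4% had a log2 fold change above 0 at day 4 and 51.4% at day 10, against 49.8% and 49.5% of all genes tested. Of the 127 lower genes 60.6% were below 0 at day 4 and 61.4% at day 10, against 50.1% and 50.5% of all genes. Over all genes the difference at day 4 minus that at day 0 was called for 4 genes, all lower (0.0287%), and the difference at day 10 minus that at day 0 for 122 higher (0.876%) and 214 lower (1.54%). Of the 286 genes 58 were among those 214, and of the 127 genes 18 were among the 122. These interactions share the day 0 libraries, and the genes were chosen on those libraries, so the counts are a description.

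The cytokines were on opposite sides of the control at days 0 and 10. IL6 read 199 and 97.1 in shIL1R libraries at day 10, against 1900 and 1801 in shScr libraries, and the difference at day 10 minus that at day 0 was −5.05 (limma adjusted p = 0.00333). CXCL8 read 5272 and 884 in shIL1R libraries at day 10, against 38965 and 44346 in shScr libraries (−5.19, limma adjusted p = 0.0197). IL1B reached 12785 and 3527 in shIL1R libraries and 49464 and 57823 in shScr libraries (−3.65, limma adjusted p = 0.0325). C3 was at 516 and 92.6 in shIL1R libraries and 3168 and 3454 in shScr libraries (−6.40, limma adjusted p = 0.00353). In the day 10 libraries on their own edgeR called the difference for IL6, and not for CXCL8, IL1B or C3 (adjusted p = 0.0794 for IL1B). The level of these genes was thus above the control in growing shIL1R cells and below it at day 10, in both libraries of each group. All were called by edgeR at day 0. MMP3, LIF, TNFSF15 and SOD2 also changed sides, and edgeR called each of them at day 10. Their interaction values were −4.68, −2.57, −4.05 and −2.14, with limma adjusted p-values of 0.00204, 0.000604, 0.00204 and 0.000507.

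**Figure D4:**
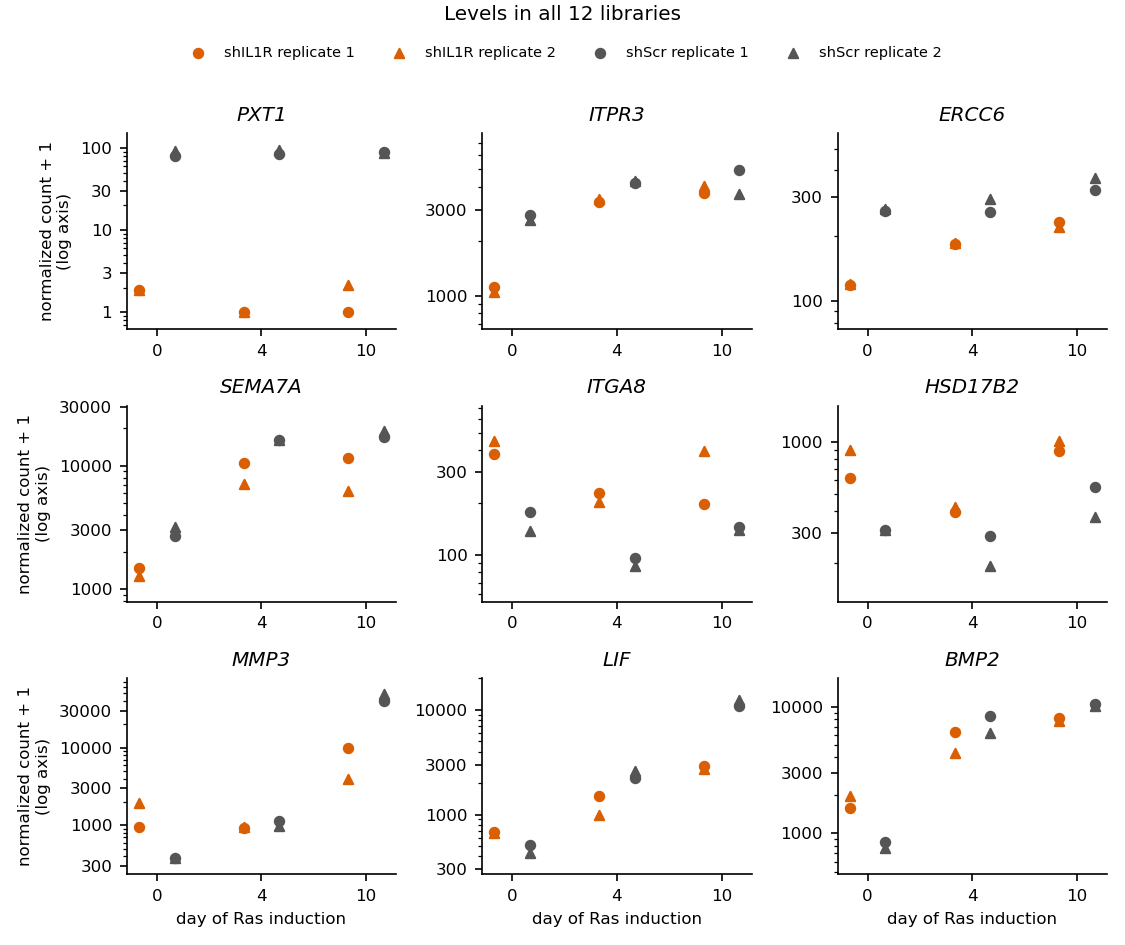
Normalized count plus 1 (log axes) of 9 genes in all 12 libraries by day of Ras induction (days 0, 4 and 10 evenly spaced), with shIL1R in orange left of shScr in grey, circles for replicate 1 and triangles for replicate 2. PXT1 and ERCC6 are lower in both shIL1R libraries at all 3 days, while MMP3 and LIF are higher at day 0 and lower at day 10.

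Other differences kept their side at all 3 days. ERCC6 read 183 and 184 at day 4 and 229 and 219 at day 10 in shIL1R libraries, against 256 and 294 at day 4 and 323 and 367 at day 10 in shScr libraries. SEMA7A read 10553 and 7042 at day 4 and 11510 and 6218 at day 10 in shIL1R libraries, against 16185 and 16095 at day 4 and 16966 and 19077 at day 10 in shScr libraries. ITGA8 read 228 and 202 at day 4 and 197 and 396 at day 10 in shIL1R libraries, against 95.1 and 86.1 at day 4 and 144 and 140 at day 10 in shScr libraries. HSD17B2 read 395 and 421 at day 4 and 879 and 1007 at day 10 in shIL1R libraries, against 287 and 192 at day 4 and 548 and 367 at day 10 in shScr libraries. For these 4 genes the change of the difference from day 0 to day 10 missed the threshold (limma adjusted p = 0.161, 0.989, 0.569 and 0.794 in that order), which does not show that the difference was the same.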

How the data were processed

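Poly(A) RNA of 12 libraries was sequenced, and 4 of them are compared here. The submitters' processing notes name TopHat, HTSeq and DESeq2 and the build hg19. Versions, annotation and strand setting are not given in the sources used here. The deposited signal is the authors' normalized count per gene, a read count divided by a library factor. Dividing each value by that of 1 read gave whole reads for 100% of values (tolerance 0.001), and edgeR and DESeq2 were run on these.

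The main test was limma 3.58.1 (R 4.3.3) on log2(value + 1) with trended eBayes in the 4 day 0 libraries (2 residual and 3.74 prior degrees of freedom), two-sided, with Benjamini-Hochberg adjustment over 13924 genes and a threshold of 0.05. On this scale fold changes of low genes are understated. EdgeR 4.0.16 (quasi-likelihood, TMM) and DESeq2 1.42.0 were planned as alternatives, and edgeR was made a second call rule after limma gave 2 calls. DESeq2 left 2720 adjusted p-values missing. Differences between days came from limma over all 12 libraries. At day 0 1 read equals 0.834 to 0.919 normalized counts. Libraries of 1 group differed by more than counting error: at day 0 the chi-square of their counts was 9.90 times its degrees of freedom for shIL1R and 8.27 times for shScr. Intervals of ratios are exact binomial and cover counting error only.

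Members, lists, fit and named-gene rule were chosen with earlier results of these data known. The rule takes IL1R1, up to 15 called genes per direction by size of change (mean of at least 50 in the higher group, no overlap of libraries), up to 4 called members of each list or the 2 with the largest change, and a fixed set. Applied to the edgeR calls after values were seen, it gives 123 genes. The text names a subset and a few genes outside the rule, both picked after the values were seen. Alternatives changed the pseudocount, the filter, the scaling, the libraries in the fit, a replicate term, the eBayes setting, the test and each library left out. The fits were tested on simulated data. Results for some genes are not reported here.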

Additional observations from a re-analysis of the deposited data

Results flagged for a closer look

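Each value here is the genotype difference (shIL1R minus shScr, log2) at a later day minus that at day 0, and was singled out because limma over the 12 libraries called that difference between days. At day 4 it was −1.54 for DPP4 and −1.23 for SLC16A6 (limma adjusted p = 0.0319 for both). At day 10 negative values were found for the cytokine and IL-1 genes CXCL5 (−7.62), CXCL8 (−5.19), IL6 (−5.05), CXCL1 (−4.83), TNFSF15 (−4.05), IL1B (−3.65), IL1A (−3.51) and LIF (−2.57). They were also found for C3 (−6.40), MASP1 (−2.40) and C1QTNF1 (−2.31) of complement and related genes, and for the proteases MMP3 (−4.68), ADAMTS5 (−1.80) and MMP1 (−1.26). The NF-kB targets SOD2 and NFKBIZ had −2.14 and −2.03, and the growth factor genes IGFBP3, BMP2 and WNT5A had −1.78, −1.51 and −0.93. CST4 had −3.78, DPP4 −1.66, TNFRSF11B −1.33, SLC16A6 −1.15 and DUSP6 −0.76. Positive values at day 10 were 2.49 for ADAMTSL1, 1.96 for ID1, 1.77 for RGS4, 1.18 for ITPR3, 0.92 for TERT and 0.59 for PRRX1. The counts of TERT may include reads of the introduced hTERT. All of these values rest on the day 0 libraries as well as on those of the later day.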

How the results depend on the processing

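The count of genes called by limma at day 0 (0 higher and 2 lower) was the same with a pseudocount of 0.5, TMM rescaling and the replicate block in the 4 libraries. With a pseudocount of 5 it was 1 higher and 4 lower, with no filter 91 and 73, with a filter of 50 it was 132 and 50, with quantile normalization 147 and 60, and without trend 0 and 1. In all 12 libraries it was 4 and 5, with variance weights per group 222 and 125, with the replicate block over all 12 libraries 5 and 6, with robust eBayes 229 and 127, in edgeR 286 and 127 and in DESeq2 324 and 153. Leaving out 1 library gave 0 to 2 higher and 0 to 1 lower, with a lone library assumed to vary like the others. The alternatives to edgeR were added after the data were seen, and its count (286 and 127) was 657 and 341 with no filter, 4 and 5 in all 12 libraries, 682 and 361 with the replicate block, and 54 and 16 at 2-fold or more. Leaving out 1 library gave 2 to 1114 higher and 2 to 575 lower. The deviations of same-numbered libraries correlated at 0.00785 over genes, so they showed no shared shift over all genes. This cannot tell whether same-numbered samples were made together, and the block is given for completeness. For IL1R1 the log2 fold change stayed between −2.02 and −1.07 with 1 library left out. It passed with a filter of 50 (−1.54, adjusted p = 0.0330), quantile normalization (−1.61, 0.0299), variance weights (−1.54, 0.0307), edgeR (−1.46, 0.00925), DESeq2 (−1.45, 0.0360) and without replicate 1 of shIL1R (−2.02, 0.0468). Interaction calls for day 10 (122 higher and 214 lower) were 11 to 45 higher and 31 to 109 lower with 1 day 0 library left out, and those for day 4 (0 and 4) were 0 to 3 lower. With 1 day 0 library left out the interaction at day 10, near 0 in the full fit, ran from −0.12 to 0.15 for SEMA7A (below 0 without replicate 2 of either group) and from −0.45 to 0.072 for HSD17B2 (above 0 without replicate 2 of shIL1R). The cause of these shifts was not tested. With 2 libraries a group, what can be called depends on the test.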
